A study of Mus musculus with 6 samples.

Results

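The 42 genes described here are the cyclins, cyclin-dependent kinases (CDKs), CDK inhibitors, retinoblastoma (RB) family proteins and E2F factors, with a few of their activators, in embryonic submandibular glands (eSMGs) treated with AMD3100. They were chosen by gene symbol, and all 42 were found among the 23260 genes of the count tables. The 42 fall into 12 drivers of the G1/S transition, 7 CDK inhibitors and cyclins G, 16 members of the RB, E2F and DREAM group and 7 regulators from S phase to mitotic entry. The glands were taken from E14 embryos of the ICR mouse strain and pooled, up to 10 per tube, after 6 h of culture either untreated (control) or in 50 µM AMD3100, which blocks the chemokine receptor CXCR4. Each group had 3 tubes, and each tube gave 1 library. Neither group carries a genetic change, both received the same time in culture, and a tube holds whole glands, so that epithelium and mesenchyme were read together. In such bulk RNA, fewer cells of a type and less RNA per cell cannot be told apart. No label says that the tubes came from separate litters, so the p-values measure the spread between tubes.

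A cell enters S phase when cyclin D with CDK4 or CDK6, and then cyclin E with CDK2, phosphorylate RB and its relatives p107 and p130, which releases the E2F factors to transcribe the genes of DNA replication. CDK inhibitors of the p21 and INK4 families hold these kinases back. In resting cells, p107 or p130 with E2F4 or E2F5, a DP protein and the MuvB core form the DREAM complex, which silences cell-cycle genes, and the same MuvB core later works with B-MYB and FOXM1 on genes of mitosis. Cyclin A, cyclin B and CDK1, switched on by the CDC25 phosphatases and held by WEE1, carry the cell into mitosis. In the salivary gland, these proteins act in the dividing cells of the end buds and of the mesenchyme around them.

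Libraries held between 9051595 and 14393031 counts, and each read marks the 3′ end of a transcript. Expression is given as CPM, counts scaled to a common library total after TMM normalization, which evens out composition between libraries. A count of 3, the floor taken for a single library, stood at between 0.208 and 0.331 CPM, and this covers counting error only, since copied reads are not independent molecules. All 42 members passed the filter on low counts, so that none was left out of the comparison. Coverage was uneven, with 6 members at over 1000 counts in every library and 5 (Cdk6, Myc, Mycn, Cdkn2c and E2f8) at under 100 counts in every library. All markers fixed for epithelium and mesenchyme, 10 for each, were detected, with Cdh1 (the adhesion protein E-cadherin) at 337, 302 and 211 CPM in control replicates 1 to 3 and 344, 394 and 507 CPM in AMD3100 replicates 1 to 3. The epithelial list did not follow Cdh1, as it summed to 1349, 1397 and 993 CPM in AMD3100 replicates 1 to 3. The log2 fold change of Cdh1 between the groups was 0.55. Epcam (-0.05), Krt8 (-0.03), Sox10 (-0.05) and Cldn6 (-0.49) were lower, and the rest of the epithelial list was higher.

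The replicate 3 libraries of both groups stood apart from the 4 others. On the first principal component, which held 38.2% of the variance, they lay at 84.8 and 80.8, while the others lay between -78.7 and -17.4. Log2 fold changes without both libraries are given beside the members that passed both thresholds in either fit and beside some others that replicate 3 moved.

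Of the 42 members, Cdk2 and Ccng2 passed a fold change of 1.5 with an unadjusted p-value of 0.05 in edgeR's quasi-likelihood test, and both were lower in AMD3100-treated eSMGs. Over all 13610 genes tested, 1.28% passed both thresholds as lower and 0.397% as higher, against 4.76% and 0% of the members. With the replicate number as a block, that is, comparing the tubes of the same number, Cdkn2d, E2f7 and Tfdp1 passed as well, which made 5 members lower and 0 higher, where 2.9% and 1.49% of all genes passed. No member had an adjusted p-value under 0.05. In edgeR's test, 0 of the 13610 genes did, against 228 with an unadjusted p-value under 0.05, while 3 genes did with the block and 5 by DESeq2. The lowest adjusted p-value of a member was 1 in edgeR's test, 0.513 with the block and 0.9999 by DESeq2.

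**Figure D1:**
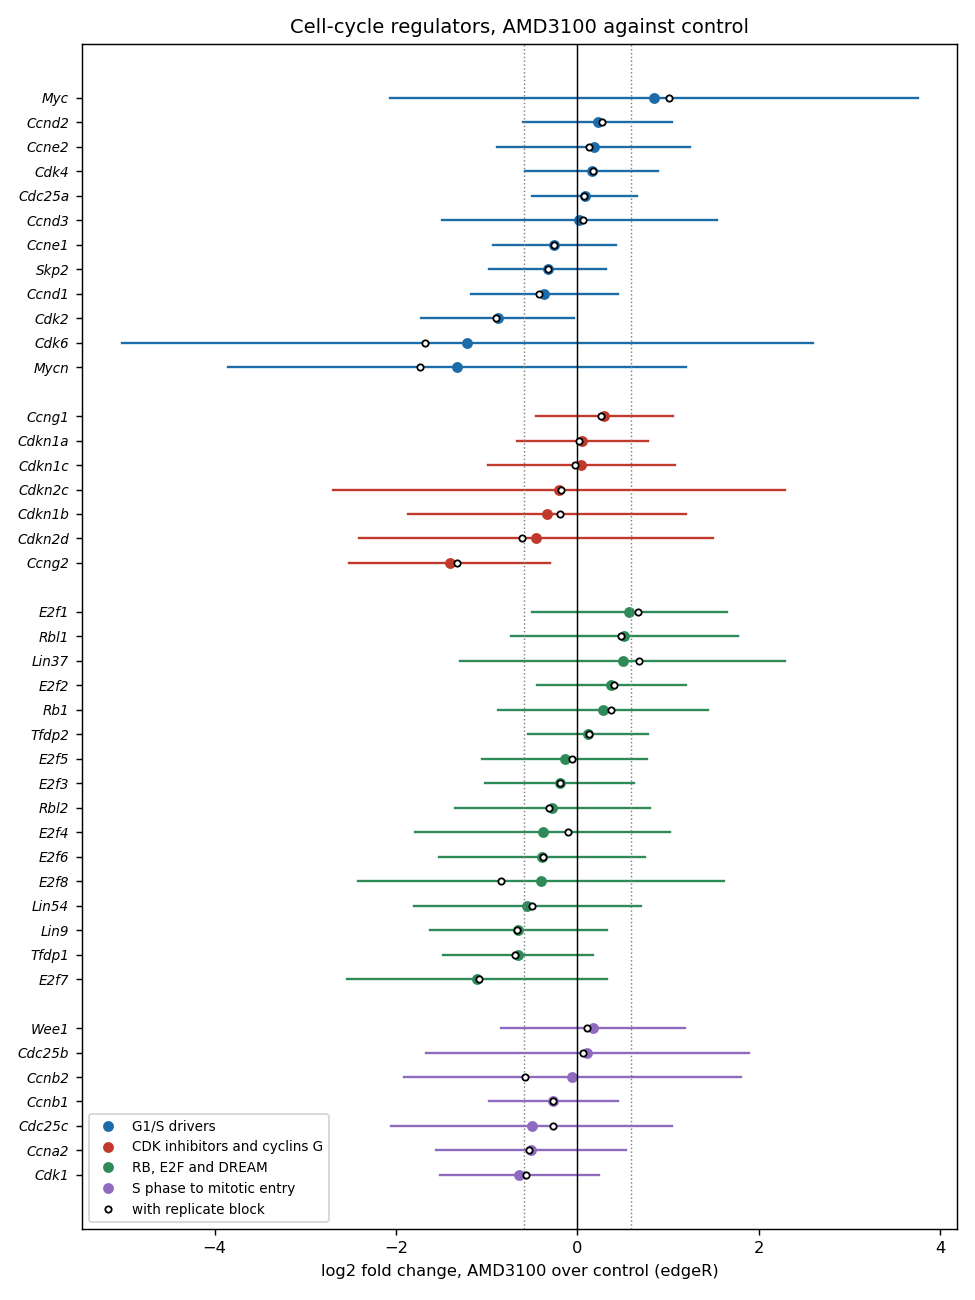
Log2 fold change of AMD3100-treated over control eSMGs for the 42 cell-cycle regulators, by role and, within a role, in falling order. Filled circles are edgeR's estimates from 3 against 3 libraries with 95% intervals, open circles are the estimates with the replicate block, and dotted lines mark a fold change of 1.5. The intervals of Cdk2 and Ccng2 lie below 0, and those of the other 40 members hold 0.

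The intervals bound what the other members could have done. The 95% interval included no change for 40 of the 42 members. For 7 of them (Cdk4, Ccne1, Cdc25a, Skp2, Cdkn1a, Tfdp2 and Ccnb1), the interval lay within a 2-fold change in either direction, as it did for 21.3% of all genes. The narrowest of these was that of Cdc25a, with a log2 fold change between -0.50 and 0.65. For Cdk6, the interval ran from -5.03 to 2.60, and it bounds little.

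The G1/S drivers began with the D-type cyclins, which start the cycle in response to growth factors. Ccnd2 had 803, 907 and 421 CPM in control replicates 1 to 3 and 950, 931 and 610 CPM in AMD3100 replicates 1 to 3. It was higher with AMD3100 in all 3 pairs of the same number, with a log2 fold change of 0.22 (95% interval -0.60 to 1.05), or 0.13 without both replicate 3 libraries, and the groups overlapped. For Ccnd1, control and AMD3100-treated eSMGs had means of 295 ± 56.8 and 229 ± 90.6 CPM (SD, n = 3 each). It was lower in all 3 pairs, and with the block its log2 fold change of -0.43 (95% interval -0.79 to -0.07) passed the p threshold but not that of the fold. Without both replicate 3 libraries it was -0.21. Ccnd3 had 311, 307 and 1187 CPM in control and 348, 316 and 1162 CPM in AMD3100-treated eSMGs. The 2 high values are those of replicate 3, and within each pair the groups stood close together (log2 fold change with the block 0.06, standard error 0.11, and 0.10 without both replicate 3 libraries).

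Ccnd3 could not be read apart from its neighbour. Its 3′ end lies over that of Bysl, a ribosome assembly gene on the opposite strand, and Bysl had between 1.013 and 1.135 counts for each count of Ccnd3 in the 6 libraries. Of 11 reads of 50 bases simulated from the last 300 bases of Ccnd3, 54.5% also matched another place in the genome. Whether reads were counted by strand is not given in the sources used here. A gene also lies on the opposite strand at the 3′ end of Ccnd1, Cdk4, Ccne2, Rb1, Rbl2, Lin37 and Ccna2. For Ccnd1 and Cdk4 it had far fewer counts. Oraov1 had 22 to 79 against 1136 to 4946 for Ccnd1, and Tspan31 had 108 to 279 against 1946 to 3849 for Cdk4. The near equality of Ccnd3 and Bysl was thus not found for Ccnd1 and Cdk4. However, Rcbtb2 had 165 to 447 counts against 55 to 127 for Rb1, and Aktip had 269 to 604 against 105 to 473 for Rbl2. Ints8 had 44 to 313 against 190 to 820 for Ccne2, and it was itself lower without overlap (log2 fold change -0.77, standard error 0.45). The counts of Rb1, Rbl2 and Ccne2 are thus uncertain too. A smaller share of simulated reads matched elsewhere for Ccng1 (27.3%), Cdk4 (18.2%), Ccnb1 and Ccnb2 (9.1% each).

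The partners of cyclin D and the activators of cyclin E followed. Cdk4, the kinase of cyclin D, had a log2 fold change of 0.16 (95% interval -0.57 to 0.89). Cdc25a, a phosphatase that activates CDK2, held nearly the same level in all 6 libraries, from 64.6 to 72.9 CPM. Ccne1 had a log2 fold change of -0.26 and Ccne2, the other cyclin E gene, one of 0.18, with groups that overlapped for both.

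Cdk2, the kinase that cyclin E and then cyclin A activate, had 34.0, 60.4 and 43.5 CPM in control replicates 1 to 3 and 26.4, 32.4 and 15.96 CPM in AMD3100 replicates 1 to 3. Every AMD3100 library was below every control library. The means of control and treated eSMGs, 45.9 ± 13.4 and 24.9 ± 8.34 CPM (SD, n = 3 each), gave a 1.84-fold lower level with AMD3100, with a log2 fold change of -0.88 (standard error 0.37, 95% interval -1.72 to -0.04, adjusted p = 1). With the block, it was -0.89 (95% interval -1.47 to -0.32, adjusted p = 0.516). The call was lost without both replicate 3 libraries (log2 fold change -0.69). Leaving out a single library also ended it for control replicate 2 (-0.63), control replicate 3 (-0.92), AMD3100 replicate 1 (-0.92) and AMD3100 replicate 3 (-0.66), and so did the quantile procedure (-0.88), with the direction kept throughout. Cdk2 lies on chromosome 10 at 128697938 to 128705051 (GRCm38.p6), and 0 of the 11 simulated reads from its 3′ end matched elsewhere.

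Skp2, the ubiquitin ligase subunit that marks the inhibitor p27 for destruction, had 28.1, 34.6 and 32.8 CPM in control and 25.9, 24.98 and 25.3 CPM in AMD3100-treated eSMGs. The groups did not overlap, yet the difference was small, with a log2 fold change of -0.33 (95% interval -0.97 to 0.32). Mycn, a transcription factor that drives proliferation of progenitor cells, had 38, 75 and 33 counts in control and 39, 1 and 20 counts in AMD3100-treated eSMGs. After scaling these stood at 3.33, 5.46 and 3.29 CPM and 2.25, 0.0922 and 2.46 CPM. Every AMD3100 library was below every control library, with a log2 fold change of -1.33 (95% interval -3.86 to 1.20). Without AMD3100 replicate 2, the lowest library, it was -0.78. Of the simulated reads from its 3′ end, 27.3% also matched elsewhere, so that its counts are uncertain. Myc, its relative, had 2, 38 and 11 counts in control and 50, 41 and 5 counts in AMD3100-treated eSMGs, and Cdk6 had 60, 13 and 2 counts and 16, 0 and 15 counts. For both, the libraries of a group differed more from each other than the groups did, and at these counts no difference was detectable.

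**Figure D2:**
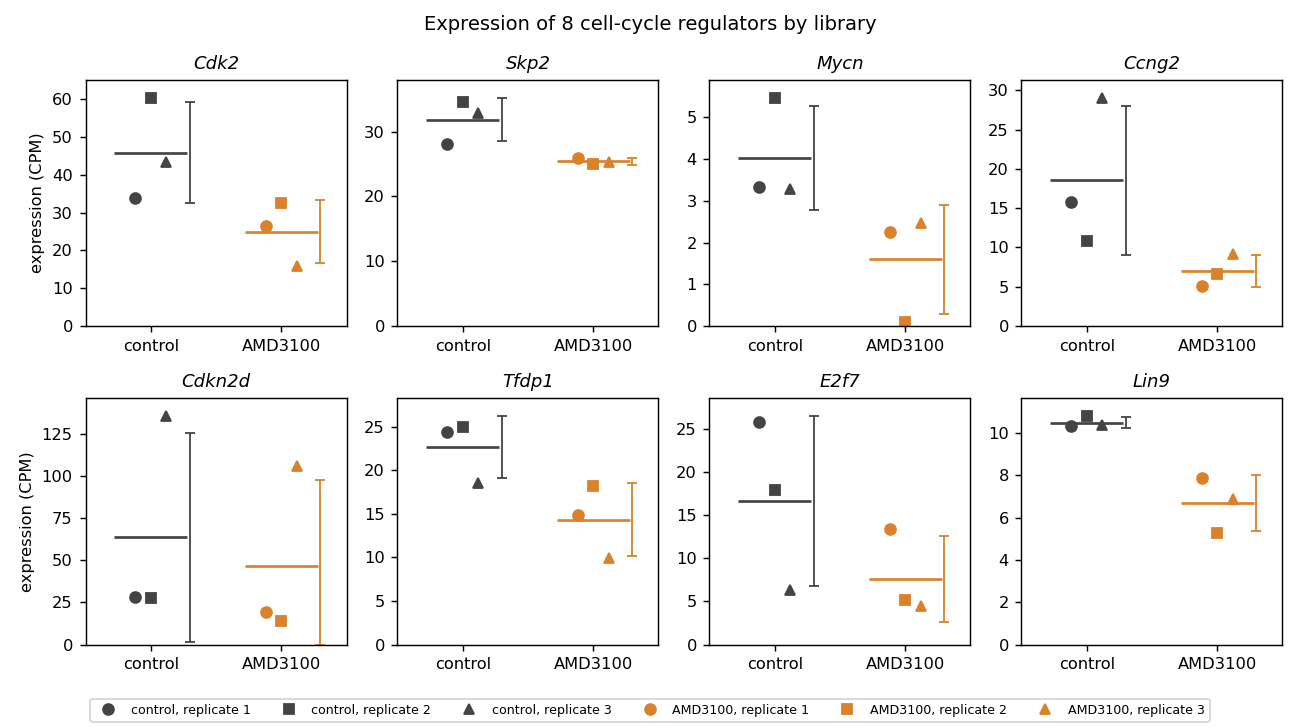
Expression (CPM, axes from 0) in each library for the 8 members that passed a fold change of 1.5 with an unadjusted p-value of 0.05 in either fit or whose groups do not overlap. Symbols are replicates, lines are group means and bars are SD (n = 3), ended at 0 for Cdkn2d. The groups do not overlap for Cdk2, Skp2, Mycn, Ccng2, Tfdp1 and Lin9, for Cdkn2d replicate 3 is far above the other libraries of both groups, and for E2f7 AMD3100 replicate 1 lies above control replicate 3.

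Absence of overlap was found for 6 members (Cdk2, Skp2, Mycn, Ccng2, Tfdp1 and Lin9), all lower with AMD3100, which is 14.3% of the members against 4.17% of all genes tested. No member was higher in every AMD3100 library, against 3.28% of all genes. An exact permutation test of 3 against 3 libraries cannot go below a p-value of 0.1, two-sided. By pairs, 13 members (31.0%) were lower with AMD3100 in all 3 and 6 (14.3%) were higher in all 3, where 14.6% and 16% of all genes were. Besides the members without overlap, the 13 held Ccnd1, Cdkn2d, E2f6, E2f7, Ccna2, Ccnb1 and Cdk1. The 6 were Ccnd2, Cdk4, Cdc25a, Ccng1, E2f1 and Tfdp2. A gene that replicate 3 moves in both groups can pass this count by pairs while its groups overlap.

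Among the inhibitors and cyclins G, Ccng2 stood out. It encodes cyclin G2, an atypical cyclin whose level rises in cells that leave the cycle, and not an activator of a cell-cycle CDK. It had 15.8, 10.8 and 29.0 CPM in control replicates 1 to 3 and 5.13, 6.64 and 9.21 CPM in AMD3100 replicates 1 to 3, from 148 to 291 and from 72 to 89 counts. Every AMD3100 library was below every control library, in both replicate 3 libraries as in the others. Its level was 2.65-fold lower with AMD3100, with a log2 fold change of -1.41 (standard error 0.49, 95% interval -2.52 to -0.30, adjusted p = 1), and with the block it was -1.33 (95% interval -2.18 to -0.48, adjusted p = 0.513). The call was lost without both replicate 3 libraries (-1.18), without control replicate 3 (-0.93), without AMD3100 replicate 1 (-1.22) and by the quantile procedure (-1.37), with the direction kept throughout. Ccng2 lies on chromosome 5 at 93267573 to 93276231 (GRCm38.p6), and 0 of its 11 simulated reads matched elsewhere. Its relative Ccng1, a target of p53, had a log2 fold change of 0.30 (95% interval -0.46 to 1.05). With a library left out, that of Ccng1 ranged from 0.004 to 0.49.

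The p21 family is made of Cdkn1a, Cdkn1b and Cdkn1c, which encode p21, p27 and p57. Cdkn1c had 4722, 5073 and 2368 CPM in control and 5179, 5397 and 1934 CPM in AMD3100-treated eSMGs. Both replicate 3 libraries were low and the groups overlapped, with a log2 fold change of 0.04 (95% interval -0.99 to 1.07) that turned to -0.02 with the block and was 0.10 without both replicate 3 libraries. Cdkn1b had 75.7, 121 and 18.0 CPM in control and 69.2, 80.6 and 20.5 CPM in AMD3100-treated eSMGs, again low in replicate 3 (log2 fold change -0.34, 95% interval -1.87 to 1.20, and -0.40 without both replicate 3 libraries). Cdkn1a, which p53 activates, had means of 42.01 ± 5.15 and 43.6 ± 13.6 CPM (SD, n = 3 each) in control and treated eSMGs, with a 95% interval of its log2 fold change from -0.67 to 0.78.

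Of the INK4 family, which blocks CDK4 and CDK6, Cdkn2d (p19) had 28.0, 27.5 and 136 CPM in control and 19.5, 13.9 and 106 CPM in AMD3100-treated eSMGs. It was lower in all 3 pairs while the groups overlapped, with both replicate 3 tubes far above the others. Its log2 fold change was -0.46 (95% interval -2.41 to 1.49) and, with the block, -0.61 (95% interval -1.05 to -0.17, adjusted p = 0.611). Since both replicate 3 tubes were high, leaving out a single one of them moved the value most, to -1.94 (past both thresholds) without AMD3100 replicate 3 and to 0.75 without control replicate 3, while without both it was -0.73 and did not pass. All 11 simulated reads from its 3′ end also matched another place in the genome, so its counts are uncertain. Cdkn2c (p18) had between 9 and 42 counts per library and no detectable difference.

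The RB, E2F and DREAM group held no member past both thresholds without the block and 2, E2f7 and Tfdp1, with it. The pocket proteins themselves had log2 fold changes of 0.29 for Rb1, 0.52 for Rbl1 (p107) and -0.28 for Rbl2 (p130), all with groups that overlapped. Those of Rb1 and Rbl2 are uncertain, as a gene lies on the opposite strand at the 3′ end of each. Among the activator E2F genes, E2f1 was higher with AMD3100 in all 3 pairs, with 10.6, 18.5 and 34.9 CPM in control and 32.9, 21.0 and 41.0 CPM in AMD3100-treated eSMGs. Its log2 fold change was 0.57 (95% interval -0.51 to 1.64), and it passed both thresholds as higher when control replicate 3 was left out (1.12). Replicate 3 was the highest library of both groups, and the value was 0.88 without both of them, which did not pass, and 0.24 without control replicate 1. E2f2 and E2f3 had log2 fold changes of 0.37 and -0.19.

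E2f7, an atypical E2F that represses the targets of the activator E2Fs, had 25.8, 17.9 and 6.28 CPM in control and 13.4, 5.16 and 4.42 CPM in AMD3100-treated eSMGs. It was lower in each pair, and AMD3100 replicate 1 stood above control replicate 3. The log2 fold change was -1.11 (95% interval -2.54 to 0.32) and, with the block, -1.09 (95% interval -1.99 to -0.19, adjusted p = 0.703). Without both replicate 3 libraries it was the 1 member that passed both thresholds (-1.23). It also passed both when control replicate 3 (-1.50) or AMD3100 replicate 1 (-1.80) was left out. E2f8, the other atypical E2F, had 52, 83 and 37 counts in control and 9, 50 and 47 counts in AMD3100-treated eSMGs, with groups that overlapped. E2f7 lies on chromosome 10 at 110745439 to 110787384 (GRCm38.p6).

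Tfdp1, which encodes DP1, the partner that most E2Fs need to bind DNA, had 24.3, 24.98 and 18.5 CPM in control and 14.9, 18.2 and 9.95 CPM in AMD3100-treated eSMGs. The groups did not overlap, by a narrow gap between control replicate 3 and AMD3100 replicate 2. The log2 fold change was -0.66 (95% interval -1.48 to 0.17) and, with the block, -0.68 (95% interval -1.32 to -0.05, adjusted p = 0.722). By the quantile procedure, it passed both thresholds (-0.66), and without both replicate 3 libraries it did not (-0.59). Since 90.9% of the simulated reads from its 3′ end also matched another place in the genome, these counts are uncertain. Its relative Tfdp2 had 38.7, 33.1 and 26.5 CPM in control and 38.8, 34.7 and 32.8 CPM in AMD3100-treated eSMGs, nearly level in replicates 1 and 2 and higher with AMD3100 in replicate 3 (log2 fold change 0.11, 95% interval -0.55 to 0.77).

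The repressor E2Fs of the DREAM complex are E2f4 and E2f5, and E2f5 had 62.9, 39.3 and 22.8 CPM in control and 46.1, 37.7 and 29.5 CPM in AMD3100-treated eSMGs. The spread within the control group covered all AMD3100 libraries (log2 fold change -0.14, 95% interval -1.05 to 0.77). E2f4 and E2f6 had log2 fold changes of -0.38 and -0.39, and 54.5% of the simulated reads from E2f6 matched elsewhere. Of the MuvB core, Lin9 had 10.3, 10.8 and 10.4 CPM in control and 7.89, 5.25 and 6.88 CPM in AMD3100-treated eSMGs. The control libraries lay close together (10.5 ± 0.25 CPM, SD, n = 3) and above all AMD3100 libraries (6.67 ± 1.33 CPM, SD, n = 3), with a log2 fold change of -0.65 (95% interval -1.63 to 0.33) in edgeR's test. By the quantile procedure, which takes the spread of each gene on its own, it passed both thresholds (-0.61), and without both replicate 3 libraries it did not (-0.69). Lin37 and Lin54, 2 further MuvB subunits, had log2 fold changes of 0.50 and -0.55 with groups that overlapped. Without both replicate 3 libraries, that of Lin54 was -0.04. With a library left out, that of Lin37 ranged from 0.04 to 1.22 and that of Lin54 from -0.91 to -0.30. Lin37 is uncertain, since its 3′ end lies over Hspb6 on the opposite strand, which itself passed both thresholds as higher (log2 fold change 1.96, standard error 0.65), and 18.2% of its simulated reads matched elsewhere.

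The upstream sequences of E2f7, Tfdp1 and Cdk2 are shown since these 3 members had an E2F motif there and passed both thresholds with the block, and that of Ccng2, the member with the largest fold past both thresholds, is shown beside them. Sequences are from RefSeq (GRCm38.p6), 5′ to 3′ on the strand of the gene, and end at the base before the gene's first annotated base. Capitals mark exact matches on either strand to an E2F motif (TTTCCCGC, TTTCGCGC, TTTGGCGC or TTTGCCGC), to the CHR motif of DREAM and MuvB targets (TTTGAA) or to the CCAAT box.
Cdk2, chr10:128705052-128705301, minus strand: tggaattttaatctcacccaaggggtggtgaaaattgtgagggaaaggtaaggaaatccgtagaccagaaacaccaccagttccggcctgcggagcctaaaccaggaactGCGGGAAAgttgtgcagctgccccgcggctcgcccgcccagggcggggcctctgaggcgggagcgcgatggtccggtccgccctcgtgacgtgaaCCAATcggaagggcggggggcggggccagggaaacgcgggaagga
E2f7, chr10:110745189-110745438, plus strand: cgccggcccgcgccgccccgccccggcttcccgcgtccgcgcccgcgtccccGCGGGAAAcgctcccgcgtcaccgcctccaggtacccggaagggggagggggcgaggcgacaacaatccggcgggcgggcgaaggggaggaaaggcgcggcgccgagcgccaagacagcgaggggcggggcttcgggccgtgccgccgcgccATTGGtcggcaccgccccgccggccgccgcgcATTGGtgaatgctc
Tfdp1, chr8:13338501-13338724, plus strand: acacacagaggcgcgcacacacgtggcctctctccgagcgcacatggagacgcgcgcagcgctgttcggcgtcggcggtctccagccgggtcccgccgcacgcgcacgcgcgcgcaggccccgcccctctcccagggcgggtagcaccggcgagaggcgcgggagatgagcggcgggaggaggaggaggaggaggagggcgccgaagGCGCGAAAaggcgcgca
Ccng2, chr5:93267323-93267572, plus strand: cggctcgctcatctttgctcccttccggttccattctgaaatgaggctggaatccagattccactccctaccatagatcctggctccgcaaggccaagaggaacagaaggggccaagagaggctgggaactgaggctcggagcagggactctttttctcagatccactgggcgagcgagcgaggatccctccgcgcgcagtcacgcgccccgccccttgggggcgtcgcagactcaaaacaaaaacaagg

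Cdk2 had an E2F match that began at position -140 from the start site and a CCAAT box at -45. E2f7 had an E2F match at -198 and 2 CCAAT boxes. Tfdp1 had a single E2F match, and Ccng2 held none of the 3 motifs in this window, which says only that these letters are not there. Promoters of 300 bases, 250 of them before the start site, were found for 30 of the 42 members (39 promoters). An E2F match was in 25.6% of these against 2.27% of all 32851 promoters in the table, a CHR match in 28.2% against 17.9%, and a CCAAT box in 48.7% against 37.4%. E2F letters on opposite strands can overlap, as they do upstream of Mycn, and a match is not evidence of binding. The 9 members with an E2F match were Cdk2, Cdc25a, Mycn, Rbl1, E2f2, E2f3, E2f7, Tfdp1 and Cdk1.

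The regulators from S phase to mitotic entry held no member past both thresholds in either fit. Cdk1, the kinase of mitosis, had 127, 162 and 300.4 CPM in control and 94.2, 154 and 130 CPM in AMD3100-treated eSMGs. It was lower in all 3 pairs, most of all in replicate 3, and the groups overlapped, with a log2 fold change of -0.64 (95% interval -1.51 to 0.23). With the block, it was -0.57 (95% interval -1.03 to -0.10), which passed the p threshold and fell just short of that of the fold. Without both replicate 3 libraries it was -0.23, and without control replicate 3 alone -0.20. Ccnb1 (cyclin B1) was also lower in all 3 pairs, with a log2 fold change of -0.26 (95% interval -0.98 to 0.45), and so was Ccna2 (cyclin A2), with -0.51 (95% interval -1.56 to 0.54, and from -1.003 without AMD3100 replicate 3 to -0.085 without control replicate 3). Ccna2 shares its 3′ end with Exosc9 on the opposite strand, which had between 0.434 and 0.982 counts for each count of Ccna2.

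Cdc25b, the phosphatase that starts the activation of CDK1, had 23.5, 20.5 and 99.3 CPM in control and 21.0, 23.0 and 111 CPM in AMD3100-treated eSMGs. Replicate 3 was high in both groups, and the fold change was near 0 (log2 0.11, or 0.06 with the block and -0.006 without both replicate 3 libraries). Ccnb2 had 133, 234 and 60 counts in control and 135, 260 and 13 counts in AMD3100-treated eSMGs, and Cdc25c and Wee1 had log2 fold changes of -0.50 and 0.17. For these 3 genes, the groups overlapped.

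**Figure D3:**
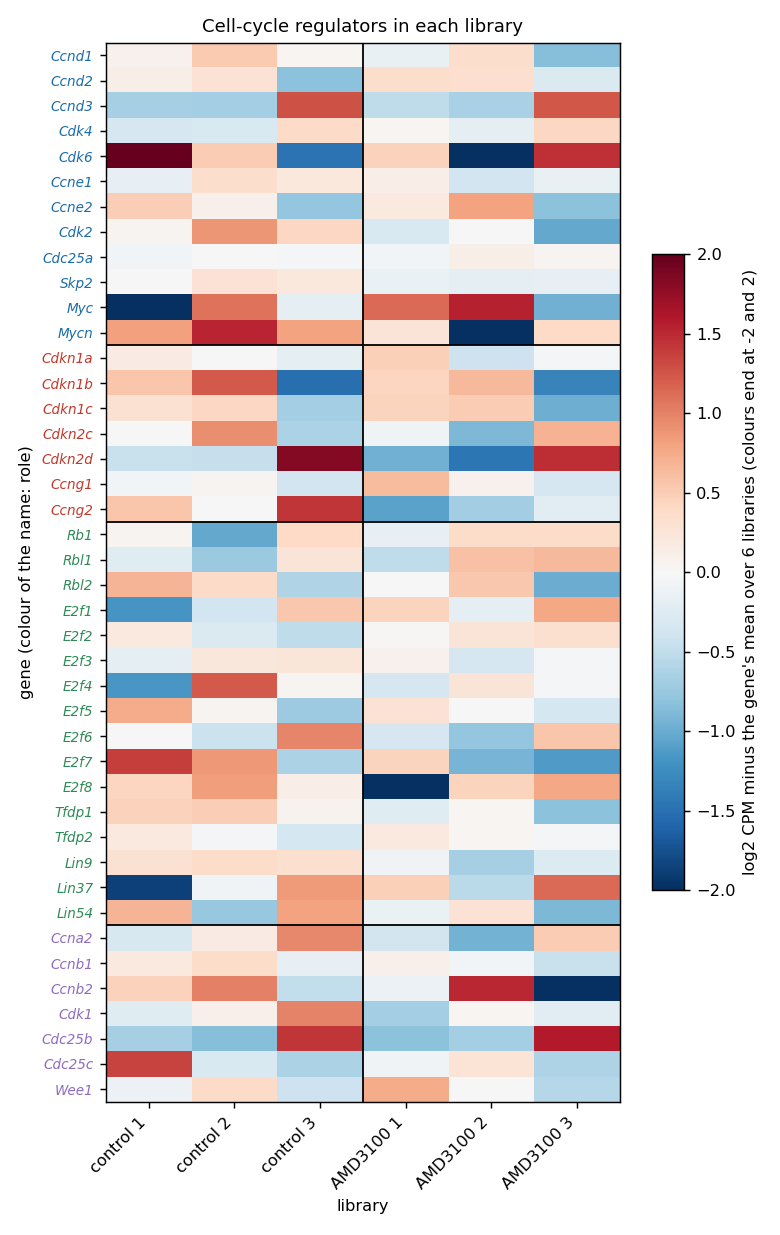
Log2 CPM of each member minus its mean over the 6 libraries, with genes in rows (names coloured by role, in the order G1/S drivers, inhibitors and cyclins G, RB, E2F and DREAM, S phase to mitotic entry) and libraries in columns. Red is above and blue below the mean, and colours end at 2 units. Ccnd3, Cdkn2d and Cdc25b are red and Cdkn1b and Cdkn1c blue in replicate 3 of both groups, while Lin9 is red in every control and blue in every AMD3100 library, faintly so in AMD3100 replicate 1.

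By role, the median log2 fold change was -0.12 for the G1/S drivers, -0.21 for the inhibitors and cyclins G, -0.24 for the RB, E2F and DREAM group and -0.26 for S phase to mitotic entry, where the median of all genes tested was 0.02. Over all 42 members, it was -0.23, with 25 lower and 17 higher. For the inhibitors and cyclins G, the sign of the median turned without control replicate 2 (0.23), without AMD3100 replicate 3 (0.053) and by the quantile procedure (0.02). The median deviation of the 42 from their own means was 0.07, 0.20 and 0.06 in the control libraries and -0.03, -0.004 and -0.16 in the AMD3100 libraries.

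Lists of other genes of the cell cycle were set beside the members. Of 30 S-phase genes that E2F regulates, 0 passed both thresholds (0 also had an unadjusted p-value under 0.05), 22 (73.3%) were lower, where 47.8% of all genes were, and the median log2 fold change was -0.21. With the block, Tyms and Mcm4 passed as lower, 6.67% of the list against 2.9% of all genes. Tyms, which makes thymidylate for DNA, had 24.2, 36.0 and 36.7 CPM in control and 23.9, 9.86 and 20.5 CPM in AMD3100-treated eSMGs, with groups that did not overlap (log2 fold change -0.83, standard error 0.40, and -0.83 without both replicate 3 libraries). Mcm4, a subunit of the replicative helicase, had 23.6, 25.1 and 61.0 CPM and 18.8, 20.6 and 20.9 CPM, likewise without overlap (log2 fold change -0.86, standard error 0.42). Much of this came from control replicate 3, as it was -0.31 without both replicate 3 libraries. In 5 of the 30 genes (16.7%) the groups did not overlap, all lower, against 4.17% of all genes.

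Of 25 tested G2/M genes that B-MYB, MuvB and FOXM1 regulate, 0 passed both thresholds in edgeR's test. With the block, 2 (Cenpa and Kif23) passed as lower, 8% of the list against 2.9% of all genes. Without both replicate 3 libraries, their log2 fold changes were -0.55 and -0.89. In all 3 pairs, 6 of the genes (24%) were lower and 4 (16%) higher, where 14.6% and 16% of all genes were. The 4 were Cenpe and Cenpf of the kinetochore, the topoisomerase gene Top2a and the proliferation marker Mki67, and Mki67 passed the p threshold with the block but not that of the fold (0.51, 95% interval 0.05 to 0.96). The median log2 fold change of the list was -0.04, with no stable sign, as it was -0.24 without AMD3100 replicate 2, 0.018 without AMD3100 replicate 3 and 0.12 without both replicate 3 libraries. The genes with the lowest p-values were Cenpa, the centromeric histone (-0.65, standard error 0.34), and Kif20a, a kinesin of cytokinesis (-0.58, standard error 0.32). The list was low in replicate 3 of both groups, with median deviations of -0.46 and -0.43 against 0.07 to 0.29 in the 4 other libraries. Of 22 subunits of the SCF and APC/C ubiquitin ligases and proteins that bind CDKs, 0 passed in edgeR's test, with a median of 0.10 that turned to -0.036 without AMD3100 replicate 2 and to -0.031 without control replicate 2. The lowest p-values were those of Cks1b, which binds SKP2 and CDKs, and Cdc23, a subunit of the APC/C. Cks1b had 262, 254 and 403 CPM in control and 198, 195 and 203 CPM in AMD3100-treated eSMGs, without overlap, and passed with the block (log2 fold change -0.59, adjusted p = 0.437). Without both replicate 3 libraries it was -0.40. Usp37, a deubiquitinase, was higher without overlap (log2 fold change 0.59, standard error 0.34). The log2 fold change of Cdc23 was -0.60 (standard error 0.32). Cdc23 and Kif20a had nearly the same counts in each library, such as 868 and 879 in control replicate 3 and 429 and 426 in AMD3100 replicate 3. Their values are thus not to be read as separate results, and whether they take the same reads was not tested.

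The other MuvB, MYB and FOXM1 subunits (6 genes) had a median of -0.16 and none past the thresholds in either fit. Lin52, a MuvB subunit of few counts, was lower in every AMD3100 library (log2 fold change -1.71, standard error 1.12). Rbbp4, a histone-binding subunit, had -0.25 (standard error 0.31), and from -0.38 to -0.04 with a library left out. Of 17 tested targets of p53, Gadd45a passed both thresholds as lower, with 14.1, 7.21 and 4.49 CPM in control and 2.82, 2.12 and 4.30 CPM in AMD3100-treated eSMGs (log2 fold change -1.48, standard error 0.65), but not with the block (-1.41), and it was -2.11 without both replicate 3 libraries. The quantile procedure also ended the call (-1.37). Leaving out a single library could end it too, with values from -1.80 to -0.93. Gadd45a is induced by stress and interferes with CDK1. Perp, also of this list, stood at 0.53 on the log2 scale (standard error 0.36) and at 0.042 without both replicate 3 libraries, and Plk2 passed as lower with the block. The 10 partners of MYC had a median of -0.05 and none past the thresholds in either fit. Max stood at -0.31 (standard error 0.29) and Mga at 0.31 (standard error 0.30). With a library left out, Max ranged from -0.46 to -0.09 and Mga from 0.14 to 0.48.

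**Figure D4:**
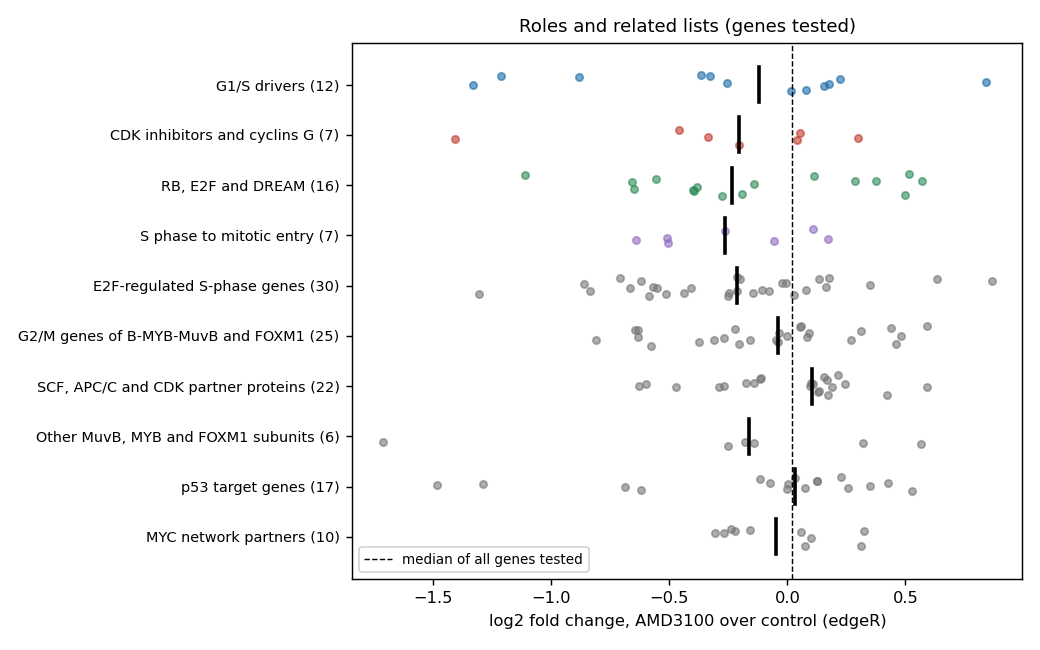
Log2 fold change of AMD3100-treated over control eSMGs (edgeR, 3 against 3 libraries) for each gene of the 4 roles (coloured) and of 6 related lists (grey), with the number of genes tested in parentheses. Thick bars are medians and the dashed line is the median of all 13610 genes, 0.02. The role medians lie between -0.26 and -0.12, and the genes of every list spread over both sides of 0.

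Differences between replicate 3 and the other libraries were larger than those between the groups for several members. Both replicate 3 libraries lay outside the range of the 4 others for 20 of the 42 members, 8 above and 12 below, and for 44.2% of all genes tested, so that the members shared this with the rest of the transcriptome. For 4 members the nearest values were over 2-fold apart. These were Cdc25b (4.23-fold), Cdkn2d (3.78-fold) and Ccnd3 (3.34-fold), high in replicate 3, and Cdkn1b (3.38-fold), low in replicate 3. Counts of Ccnd3 made up 22.5%, 19.5% and 63.6% of the D-type cyclin counts in control replicates 1 to 3 and 22.8%, 20.2% and 60.8% in AMD3100 replicates 1 to 3. The 95% Wilson interval was 62.9 to 64.3% in control replicate 3 and 21.9 to 23.2% in control replicate 1. These intervals cover counting error only, not the spread between tubes, and the overlap with Bysl holds for these shares too.

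**Figure D5:**
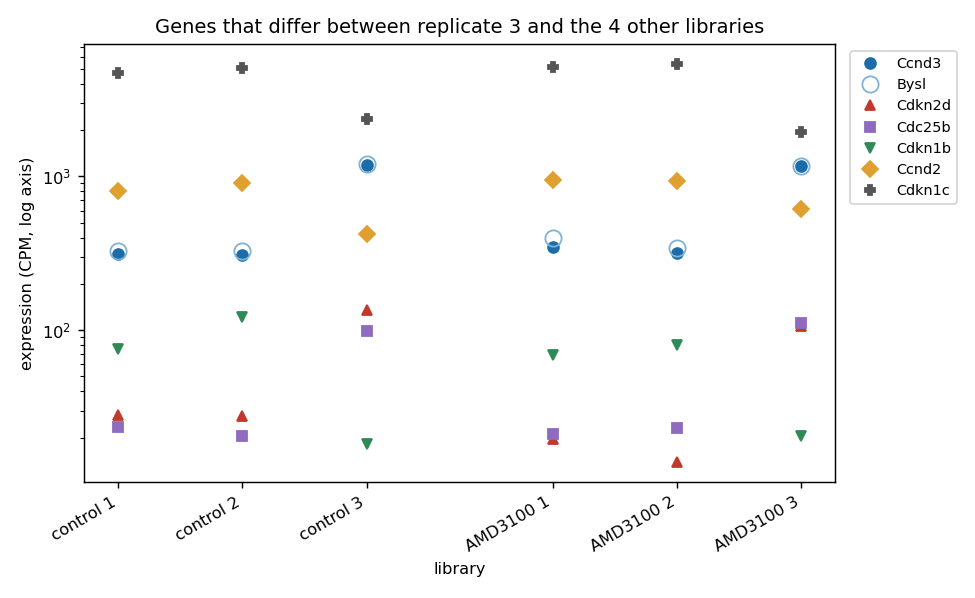
Expression (CPM, log axis) in each library of 6 members whose replicate 3 libraries lie outside the range of the 4 others, and of Bysl (open circles), which overlaps Ccnd3 on the opposite strand. Ccnd3 and Bysl nearly coincide in all 6 libraries, Cdkn2d and Cdc25b are high and Cdkn1b, Ccnd2 and Cdkn1c low in replicate 3 of both groups.

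Marker genes of other tissues moved with replicate 3 as well. The 10 skeletal muscle markers, all with counts, summed to 316, 331 and 1420 CPM in control and 220, 182 and 1951 CPM in AMD3100-treated eSMGs. Myog had 41.1, 40.0 and 521 CPM and 13.9, 9.96 and 485 CPM and was the most abundant of them in the replicate 3 libraries, where it stood at 5220 and 3952 counts and Actc1 at 2628 and 3344. In the 4 other libraries Actc1 led, at between 724 and 1738 counts, where Myog had between 108 and 549. Myod1 was at 0 counts in AMD3100 replicate 2 and Ckm in control replicate 1 and AMD3100 replicate 2. The 10 mesenchyme markers, none at 0, summed to 4279, 4216 and 1983 CPM and 4294, 4203 and 1765 CPM, with Col3a1 the most abundant at 1403, 1421 and 406 CPM and 1409, 1393 and 415 CPM. The epithelial markers, none at 0, summed to 1266, 1268 and 610 CPM and 1349, 1397 and 993 CPM. Their part in the replicate 3 differences of the members was not tested.

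Between the groups, 0 of the 63 tested markers of epithelium, mesenchyme, endothelium, ganglion and glia, erythroid cells, macrophages and muscle passed both thresholds in edgeR's test, and 0 had an unadjusted p-value under 0.05. With the block, 3 of the 63 passed, all lower (Twist1 of mesenchyme, and Myod1 and Myog of muscle), where 2.9% of all genes passed as lower. The other muscle markers mostly went the other way in edgeR's test. Myh3 (0.48), Myh8 (1.17), Actc1 (0.13), Acta1 (0.44), Tnnt1 (0.47), Tnnc1 (0.33) and Ttn (0.51) were higher on the log2 scale, and Ckm (-1.38) was lower. Of the other mesenchyme markers, Col1a1, Dcn and Lum were higher and the rest lower. The erythroid markers, none of which was at 0 in all libraries, summed to 9569, 24780 and 16780 CPM in control and 9124, 14550 and 16230 CPM in AMD3100-treated eSMGs, with Hba-a1 the most abundant. Hbb-b1 and Hbb-bs had nearly the same counts in each library, so that this sum takes some reads more than once. The erythroid sum was lower in all 3 pairs, while that of the epithelial markers was higher in all 3. The part of either in the members that were lower with the block was not tested.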

How the data were processed

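The authors deposited raw read counts per gene symbol for 6 libraries of 3′ mRNA sequencing (50 bp single reads), 3 per group, neither normalized nor filtered. Their processing notes name mm10, Bowtie2 and edgeR, without versions, and strand-specific counting is not given in the sources used here. Of 23282 lines, 22 identical repeats were left out. Members and lists were chosen with earlier results of these data known.

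Counts were fitted with edgeR 4.0.16 (R 4.3.3, TMM, filterByExpr, glmQLFit, glmQLFTest, Benjamini-Hochberg adjustment). The quantile procedure follows the study's methods in part: log2(count + 1) was quantile normalized with limma 3.58.1, where the study names edgeR, group means for the fold change were taken after unlogging, and the log2 values went into an equal-variance test. Other alternatives were DESeq2 1.42.0, no filter, the replicate block, libraries left out and, added after the data were seen, Rn45s (16.2 to 32.5% of counts) left out. The fits were also run on simulated counts with less spread between libraries than here and no replicate effect. That run does not show how they behave on these libraries.

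The libraries were paired by the replicate numbers shared in the labels. Deviations from group means correlated across genes at 0.185, 0.171 and 0.584 for replicates 1 to 3. However, replicate 1 of AMD3100 correlated with control replicate 2 at 0.198, and replicate 2 of AMD3100 with control replicate 1 at 0.146. The correlations thus set only replicate 3 apart, and for replicates 1 and 2 the blocked fit and the counts by pairs rest on the labels.

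Members were named if past both thresholds in the unblocked or blocked fit, if their groups did not overlap, or if among the 2 with most counts in a role, and listed genes if among the 2 lowest p-values. Other members and blocked calls of the lists were named after their values were seen. 3′ ends were checked with minimap2 2.31-r1302 on NCBIM37 and GENCODE vM1, another build than mm10, and promoters and positions come from RefSeq on GRCm38.p6. A read was shared if another place matched within 1 mismatch of the best.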

Additional observations from a re-analysis of the deposited data

How the results depend on the processing

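The number of genes past both thresholds, 228 in edgeR's test, was 598 with the replicate block, 479 by DESeq2, 429 by the quantile procedure, 576 without both replicate 3 libraries and from 154 to 481 with a library left out, and genes higher with AMD3100 made up 23.7% of the 228, 33.9% with the block, 35.1% by DESeq2, 40.1% by the quantile procedure and 42% without replicate 3. Members past both thresholds, 2 in edgeR's test, numbered 5 with the replicate block, 1 without both replicate 3 libraries (E2f7) and from 1 to 2 with a library left out, and the quantile procedure called 2 others, Lin9 and Tfdp1. The block ended no member's call and changed no other call than those given in the report. Members without overlap, 6 of 42, numbered 19 without both replicate 3 libraries, where only 2 libraries per group were left, and from 7 to 12 with a library left out. DESeq2, no filter and leaving out Rn45s (chosen after the data were seen) kept direction and side of the thresholds for all 42 members. The depth of Cdk6, Myc, Mycn, Cdkn2c and E2f8 limits what could be detected for them.

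With a library left out, the median log2 fold change ranged from -0.25 to -0.14 for all members, from -0.19 to -0.11 for the G1/S drivers (-0.072 without both replicate 3 libraries), from -0.30 to 0.23 for the inhibitors and cyclins G, from -0.26 to -0.12 for the RB, E2F and DREAM group, from -0.39 to -0.20 for S phase to mitotic entry, from -0.24 to 0.018 for the G2/M genes, from -0.036 to 0.14 for the SCF and APC/C list, from -0.27 to -0.066 for the other MuvB, MYB and FOXM1 subunits, from -0.27 to 0.20 for the p53 targets and from -0.11 to 0.079 for the MYC partners. Of the 42 members, 21 changed sign in at least 1 alternative, none of them past both thresholds in edgeR's test, and the cause was not tested. The sign turned for Cdkn1c with the replicate block (-0.023), for Cdkn2c by the quantile procedure (0.044) and, without both replicate 3 libraries, for Ccnb2 (0.13) and Cdc25b (-0.006). With a library left out, log2 fold changes ranged from -0.046 to 0.44 for Ccnd2, -0.87 to 0.98 for Ccnd3, -0.035 to 0.43 for Cdk4, -2.16 to 0.65 for Cdk6, -0.25 to 0.49 for Ccne2, -0.22 to 0.24 for Cdkn1a, -0.80 to 0.28 for Cdkn1b, -0.24 to 0.37 for Cdkn1c, -0.69 to 0.34 for Cdkn2c, -1.94 to 0.75 for Cdkn2d, -0.03 to 0.60 for Rb1, -0.67 to 0.025 for Rbl2, -0.79 to 0.41 for E2f4, -0.44 to 0.28 for E2f5, -0.86 to 0.11 for E2f6, -0.92 to 0.12 for E2f8, -0.02 to 0.24 for Tfdp2, -1.28 to 0.44 for Ccnb2, -1.13 to 1.23 for Cdc25b, -0.84 to 0.37 for Cdc25c and -0.25 to 0.42 for Wee1.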
